A study of Mus musculus with 12 samples.

Results

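The genes of V(D)J recombination and of the end joining pathway that completes it were measured by RNA-sequencing in pre-B cells that carried either an empty retroviral vector (EV) or BCR-ABL1, the constitutively active tyrosine kinase of chronic myeloid and some acute lymphoid leukemias. There were 10 such genes among the 51826 genes counted, namely Rag1, Rag2, Dntt, Dclre1c, Prkdc, Xrcc5, Xrcc6, Lig4, Xrcc4 and Nhej1, chosen by name, and all 10 were among the 15038 genes that passed the filter on low counts. Bone marrow cells of 2 C57BL/6 mice, with no other genotype given, were grown for 7 days with interleukin 7 (IL7), the cytokine on which pre-B cells depend in culture. Transduction and a further 48 h in IL7 gave 3 lines per vector from each mouse. The BCR-ABL1 lines then grew without IL7 for 1 week, and the EV lines stayed in IL7 for a similar time before GFP-positive cells were sorted. BCR-ABL1, the withdrawal of IL7 and the missing sort therefore cannot be told apart. The digit in a line's name is its mouse and the letters A to C its replicate, so the 6 lines of a group stand for 2 animals. The labels call the cells pro-/pre-B cells.

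V(D)J recombination assembles the variable parts of immunoglobulin genes from V, D and J segments while B cell precursors mature. The RAG1 and RAG2 proteins form the recombinase, which binds the signal sequences beside the segments and cuts the DNA, leaving hairpin-sealed coding ends. The Ku heterodimer of KU70 (Xrcc6) and KU80 (Xrcc5) then holds the broken ends and recruits DNA-PKcs (Prkdc), the kinase that activates the Artemis nuclease (Dclre1c) to open the hairpins. Terminal deoxynucleotidyl transferase (TdT, Dntt) adds bases without a template, and DNA ligase IV (Lig4) with its partners XRCC4 (Xrcc4) and XLF (Nhej1) seals the junction. The Ku proteins, DNA-PKcs and the ligase complex also repair ordinary double-strand breaks in other cells.

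In BCR-ABL1 lines the TdT gene Dntt rose 19.7-fold, with a large difference between the mice, while neither Rag1 nor Rag2 passed the test. Lig4 fell 2.79-fold and the Artemis gene Dclre1c fell 2.11-fold. The Ku genes parted, with Xrcc5 1.38-fold higher and Xrcc6 1.42-fold lower, and Nhej1 fell 1.35-fold. These smaller changes passed only the test against no change, and the calls were lost in 8, 7 and 12 of 22 alternative fits for Xrcc5, Xrcc6 and Nhej1. The calls beyond 1.5-fold were lost in 11, 4 and 1 of the 22 alternative fits for Dntt, Dclre1c and Lig4. Prkdc and Xrcc4 did not pass the test over the 12 lines.

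The promoters of the recombinase genes and of both end joining genes that fell beyond 1.5-fold are shown to set the recombinase genes beside those with the largest falls. RefSeq promoter windows on GRCm38.p6 were found for 9 of the 10 genes, and each line gives the 250 bases before the start of transcription on the gene's own strand. Capitals mark matches on either strand to any of 8 short motifs, namely the TATA box (spelled TATAAA), the GC box (GGGCGG), the CCAAT box (CCAAT), and the motifs named for ETS (CCGGAAG), Ikaros (TGGGAA), E-box (CAGNTG), FOXO (GTAAACA) and STAT factors (TTCNNNGAA). None of these motifs contains another. The windows are chr2:101649533-101649782 on the minus strand for Rag1, chr2:101624462-101624711 on the plus strand for Rag2, chr19:41029025-41029274 on the plus strand for Dntt, chr2:3423881-3424130 on the plus strand for Dclre1c and chr8:9977681-9977930 on the minus strand for Lig4.
Rag1: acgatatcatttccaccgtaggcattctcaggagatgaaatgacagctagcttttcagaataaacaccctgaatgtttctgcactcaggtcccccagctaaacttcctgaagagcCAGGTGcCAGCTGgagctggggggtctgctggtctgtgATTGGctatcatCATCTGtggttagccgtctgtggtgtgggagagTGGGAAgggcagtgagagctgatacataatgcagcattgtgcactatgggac
Rag2: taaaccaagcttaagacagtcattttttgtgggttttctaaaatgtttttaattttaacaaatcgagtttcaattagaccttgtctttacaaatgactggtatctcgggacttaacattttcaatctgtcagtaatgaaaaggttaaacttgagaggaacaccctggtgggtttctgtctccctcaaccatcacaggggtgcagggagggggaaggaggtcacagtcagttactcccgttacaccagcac
Dntt: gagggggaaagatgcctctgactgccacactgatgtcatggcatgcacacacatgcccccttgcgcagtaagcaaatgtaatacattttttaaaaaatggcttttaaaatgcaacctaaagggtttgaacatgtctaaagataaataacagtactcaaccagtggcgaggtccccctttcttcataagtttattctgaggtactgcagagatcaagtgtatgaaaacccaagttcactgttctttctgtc
Dclre1c: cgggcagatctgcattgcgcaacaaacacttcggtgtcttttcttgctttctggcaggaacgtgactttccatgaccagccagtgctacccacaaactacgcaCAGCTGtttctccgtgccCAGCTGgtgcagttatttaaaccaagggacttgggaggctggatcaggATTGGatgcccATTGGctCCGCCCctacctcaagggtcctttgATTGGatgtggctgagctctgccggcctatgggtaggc
Lig4: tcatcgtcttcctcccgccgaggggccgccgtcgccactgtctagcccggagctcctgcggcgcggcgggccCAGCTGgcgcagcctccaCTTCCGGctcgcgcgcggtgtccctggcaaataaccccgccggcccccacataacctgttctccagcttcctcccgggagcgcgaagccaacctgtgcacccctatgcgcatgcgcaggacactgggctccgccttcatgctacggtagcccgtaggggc
The Rag1 window held 3 E-box matches, 1 CCAAT box and 1 Ikaros match, and the Dclre1c window held 2 E-box matches, 3 CCAAT boxes and 1 GC box. In the Lig4 window, which was 70% G and C and held 27 CG pairs, 1 ETS match and 1 E-box match were found. The Rag2 and Dntt windows, at 41.2% and 41.6% G and C, held no match to these letters. Over all 32851 windows in the table the median G and C content was 52.4%. An E-box match was present in 44.8% of all windows of this length, a CCAAT box in 33.8%, a GC box in 32.7%, an Ikaros match in 21.6%, a TATA box in 12.4%, a STAT match in 7.02%, an ETS match in 6.91% and a FOXO match in 3.17%. A match is a description of these letters and not a binding site.

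Total counts per line ranged from 34791011 to 64547911 in the EV group and from 45230023 to 66011225 in the BCR-ABL1 group. Levels are given as CPM, counts per library total scaled by TMM, and a change is edgeR's fitted log2 ratio of BCR-ABL1 to EV. The standard error (SE) beside it is that of the difference of mean log2 CPM between the groups, from the spread of the lines. That difference was close to the fitted change except for Rag1 and Dntt, where both are given below. All 12 B lineage markers listed (Cd79a, Ebf1, Pax5, Vpreb1 and others) passed the filter, with a summed level from 7975 to 11619 CPM in EV lines against 6601 to 7479 CPM in BCR-ABL1 lines. Of these 1, Ighm, fell beyond 1.5-fold (log2 change -1.07), where 6.49% of all tested genes did. None of 10 myeloid, 6 mast and basophil and 7 stromal markers passed the filter, and their summed levels were at most 1.78, 0.276 and 1.72 CPM in any line. Of the 12 T and NK markers 5 passed, with a sum of 74.3 to 146 CPM in EV lines against 68.2 to 129 CPM in BCR-ABL1 lines. Beyond 1.5-fold 2 of them fell, with log2 changes of -5.46 for Trac and -2.67 for Cd3d. Lck was the most abundant of the 12, with a mean of 81.8 CPM under the empty vector and 89.0 CPM under BCR-ABL1. Trac averaged 29.1 CPM under the empty vector, with 9.99 CPM in its lowest such line and 41.1 CPM in its highest. Its mean under BCR-ABL1 was 0.664 CPM. The listed Cd3d, Cd3e and Cd3g were low, reaching at most 0.644, 0.123 and 0.215 CPM in any line. Of 6 plasmacytoid dendritic markers 3 passed (sum 81.2 to 161 against 70.9 to 96.7 CPM) and of 7 erythroid markers 2 (1.26 to 6.79 against 5.94 to 12.7 CPM). The erythroid marker Hbb-bt rose beyond 1.5-fold, with a log2 change of 1.72 (edgeR adjusted p = 0.0296 against a 1.5-fold change). Its mean rose from 2.58 CPM with the empty vector to 8.5 CPM with BCR-ABL1, and the groups overlapped. The part of such cells in the results below was not tested. The 3 EV lines of mouse 2 stood apart from one another, with a biological coefficient of variation of 0.388 against 0.0849 to 0.103 in the other sets of 3, and EV line 2C lay opposite to EV line 2B in many of the genes below.

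Per kilobase of merged exons, the mean level in EV lines was highest for Xrcc6, at 58.9 ± 15.8 CPM per kb (SD, n = 6). Xrcc5 followed at 20.8 ± 5.11, Lig4 at 19.1 ± 6.54, Rag1 at 8.81 ± 7.68 and Prkdc at 8.45 ± 2.12 CPM per kb. The other levels were 3.60 ± 1.02 for Dclre1c, 3.42 ± 0.683 for Nhej1, 3.18 ± 0.498 for Xrcc4, 1.80 ± 3.19 for Dntt and 1.28 ± 0.561 CPM per kb for Rag2. Among neighbours in this order, the ranges of the 6 lines were apart only between Xrcc6 and Xrcc5 and between Prkdc and Dclre1c. In BCR-ABL1 lines Xrcc6 was again first, at 41.5 ± 6.47 CPM per kb, but Dntt moved to the second place at 35.0 ± 27.4, ahead of Xrcc5 at 28.6 ± 2.27. Then came Prkdc at 7.39 ± 0.239, Lig4 at 6.84 ± 0.824, Rag1 at 5.56 ± 1.38, Xrcc4 at 2.74 ± 0.261, Nhej1 at 2.52 ± 0.255, Dclre1c at 1.71 ± 0.102 and Rag2 at 1.57 ± 0.577 CPM per kb. There the ranges of neighbours were apart between Xrcc5 and Prkdc, between Rag1 and Xrcc4 and between Nhej1 and Dclre1c. Over the 6 lines of a group the spread was smaller in BCR-ABL1 lines, with a coefficient of variation of 3.23% against 25.1% for Prkdc and of 24.8% against 87.3% for Rag1. Within mouse 1 the coefficient of variation was also smaller in BCR-ABL1 lines for Prkdc, at 4.13% against 5.41% in EV lines. This did not hold for every member there. For Rag1 it was larger in BCR-ABL1 lines of mouse 1, at 16.9% against 5.75%, and for Rag2 at 27.4% against 11.3%. Merged exons include every annotated transcript, so a level per kb is low where long rare transcripts are annotated.

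**Figure D1:**
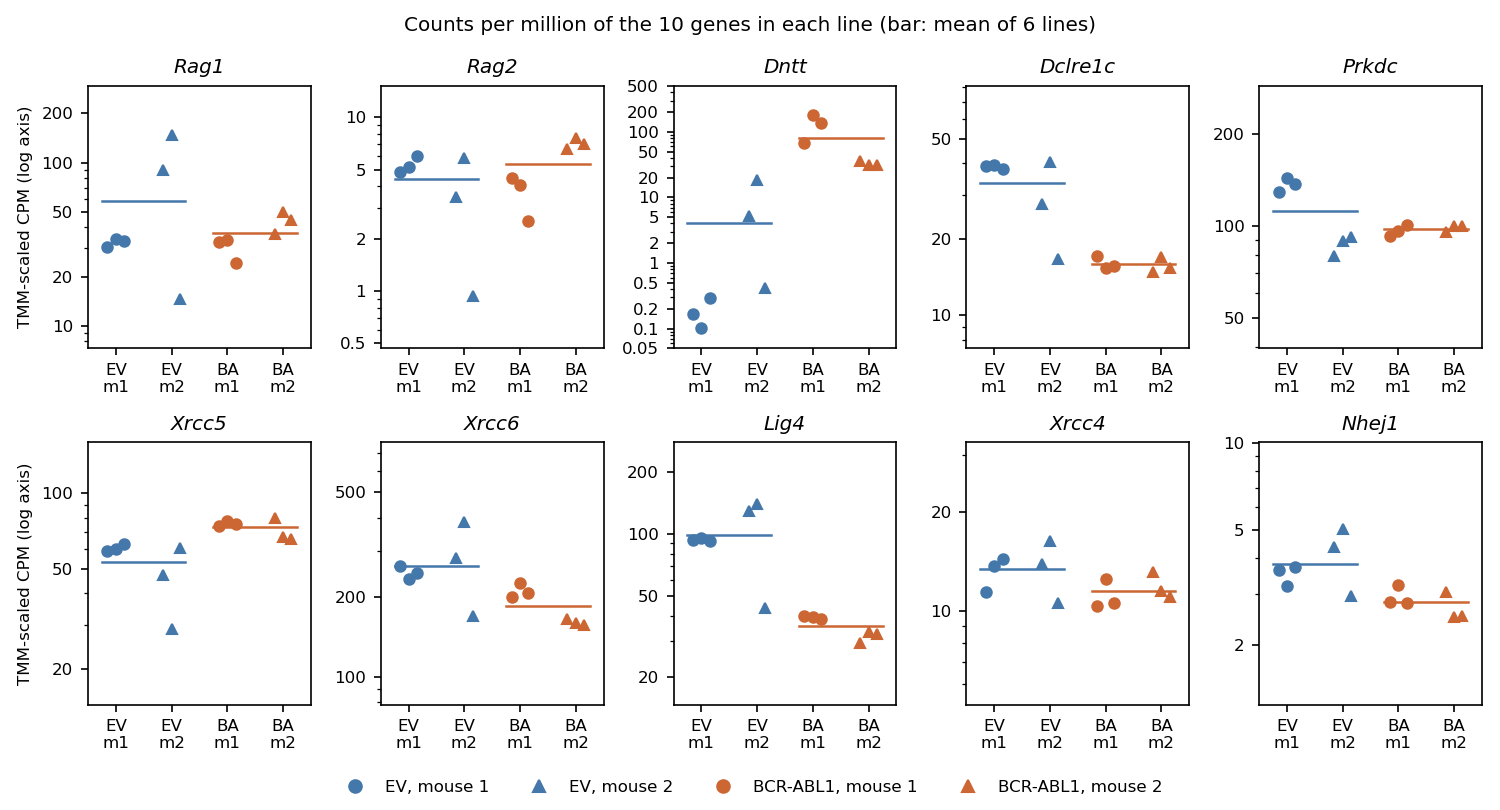
Each panel plots the TMM-scaled CPM (log axis) of 1 gene in the 12 lines, with EV in blue, BCR-ABL1 (BA) in orange, circles for mouse 1 (m1) and triangles for mouse 2 (m2), from left to right lines A, B and C, and a bar at the mean of the 6 lines. Dntt and Xrcc5 are higher and Lig4 is lower in all BCR-ABL1 lines, and in most panels the EV lines of mouse 2 are the most scattered, with Rag1 from 14.5 to 147 CPM.

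Of the recombinase genes, only Dntt passed the test between the conditions. Rag1, which encodes the catalytic subunit (chr2:101638282-101649501, minus strand), measured 30.3, 33.9 and 33.0 CPM in EV lines 1A, 1B and 1C and 90.0, 147 and 14.5 CPM in EV lines 2A, 2B and 2C. In BCR-ABL1 lines it measured 32.4, 33.5 and 24.2 CPM in mouse 1 and 36.4, 49.9 and 44.2 CPM in mouse 2. The groups overlapped, because the highest and the lowest of the 12 values were both EV lines of mouse 2. The log2 change was -0.66 (edgeR adjusted p = 0.807 against a 1.5-fold change and 0.262 against no change), and the difference of mean log2 CPM was -0.27 (SE 0.51). Without EV line 2B the log2 change of Rag1 was -0.14, and without EV line 2C it was -0.86 (edgeR adjusted p against no change 0.777 and 0.0977). In bulk RNA, fewer expressing cells and less RNA per cell cannot be told apart.

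Rag2, the regulatory subunit that reads the histone mark of active chromatin (chr2:101624718-101632529, plus strand), lies beside Rag1 and was the less abundant of the pair. It measured 4.84, 5.20 and 6.02 CPM in the EV lines of mouse 1 and 3.47, 5.86 and 0.938 CPM in those of mouse 2. In BCR-ABL1 lines the values were 4.46, 4.08 and 2.54 CPM in mouse 1 and 6.57, 7.56 and 7.06 CPM in mouse 2. Within mouse 1 all BCR-ABL1 lines were below all EV lines, and within mouse 2 all were above. Over the 12 lines the log2 change was 0.29 (SE 0.48, edgeR adjusted p = 1 against a 1.5-fold change and 0.558 against no change). Fitted in mouse 1 alone it was -0.52 (edgeR adjusted p against no change 0.0370) and in mouse 2 alone 1.06 (0.225). The difference between these effects did not pass the test over the 12 lines, at 1.58 on the log2 scale (edgeR adjusted p = 0.139), but it passed without EV line 2C, at 1.12 (0.0208), and without EV line 2B, at 2.25 (0.0191).

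Dntt, the template-independent polymerase that adds bases at junctions (chr19:41029275-41059525, plus strand), was the only member to rise beyond 1.5-fold. It was close to absent in the EV lines of mouse 1, at 0.169, 0.101 and 0.292 CPM, which rests on 7 to 19 counts per line. In EV lines of mouse 2 it measured 5.28, 18.5 and 0.415 CPM. The BCR-ABL1 lines held 66.7, 179 and 136 CPM in mouse 1 and 36.5, 31.7 and 31.6 CPM in mouse 2. The conditions did not overlap, and the order of the mice was opposite, with mouse 2 above mouse 1 in EV lines and below it in BCR-ABL1 lines. The fitted rise was 19.7-fold, or 4.30 on the log2 scale (edgeR adjusted p = 0.0396 against a 1.5-fold change and 0.0123 against no change), and the difference of mean log2 CPM was 6.17 (SE 1.25). With the mouse as a block the log2 change was 5.10 and the 1.5-fold test was missed (edgeR adjusted p = 0.0533), while the test against no change was still passed (0.0178). In mouse 1 alone the log2 change was 9.40 (edgeR adjusted p = 1.02e-07 against a 1.5-fold change), and in mouse 2 alone it was 2.06 (0.454). Leaving out EV line 2B, the highest EV line, gave 6.16 (0.00372), and over all lines left out in turn the adjusted p ran from 0.00372 to 0.0798.

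The genes that open the hairpins moved unequally. Dclre1c, which encodes the Artemis nuclease (chr2:3424131-3464130, plus strand), measured 39.2, 39.2 and 37.9 CPM in the EV lines of mouse 1 and 27.7, 40.5 and 16.8 CPM in those of mouse 2. BCR-ABL1 lines lay close together, at 17.2, 15.3 and 15.7 CPM in mouse 1 and 14.8, 17.0 and 15.4 CPM in mouse 2. All BCR-ABL1 lines were below the other 5 EV lines, and the overlap came from EV line 2C alone. Dclre1c fell 2.11-fold, a log2 change of -1.08 (SE 0.21, edgeR adjusted p = 0.0226 against a 1.5-fold change and 0.000661 against no change). Without EV line 2C the log2 change was -1.21 (edgeR adjusted p = 0.000137 against a 1.5-fold change), whereas without EV line 1A the 1.5-fold test was missed (0.0595). DESeq2 missed it as well (adjusted p = 0.120), and so did edgeR without a gene filter (0.0529). In mouse 1 alone the log2 change of Dclre1c was -1.26, and in mouse 2 alone it was -0.83. In mouse 2 both tests were missed (edgeR adjusted p = 0.448 against a 1.5-fold change and 0.0998 against no change).

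Prkdc, which encodes the catalytic subunit of the DNA-dependent protein kinase (chr16:15637866-15842235, plus strand), depended on the mouse. It measured 129, 143 and 137 CPM in the EV lines of mouse 1, but 79.3, 89.0 and 91.5 CPM in those of mouse 2. In BCR-ABL1 lines it was nearly constant, at 92.6, 96.3 and 101 CPM in mouse 1 and 95.5, 99.9 and 99.7 CPM in mouse 2. BCR-ABL1 lines were thus below EV lines in mouse 1 and above them in mouse 2, without overlap in either. The change over the 12 lines was -0.19 on the log2 scale (SE 0.15, edgeR adjusted p = 1 against a 1.5-fold change and 0.268 against no change). It was -0.49 in mouse 1 alone (edgeR adjusted p against no change 4.89e-05) and 0.20 in mouse 2 alone (0.202). The difference between the effects was 0.68 on the log2 scale (edgeR adjusted p = 0.00143).

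The Ku genes moved in opposite directions, both by less than 1.5-fold. Xrcc5, the KU80 gene (chr1:72307421-72394952, plus strand), ranged from 29.0 over a median of 59.5 to 63.0 CPM in EV and from 65.5 over 74.8 to 79.6 CPM in BCR-ABL1 lines. Every BCR-ABL1 line was above every EV line, and the lowest value was EV line 2B. Xrcc5 rose by 0.46 on the log2 scale (SE 0.18, edgeR adjusted p = 1 against a 1.5-fold change and 0.0309 against no change). Xrcc6, the KU70 gene (chr15:81987835-82040085, plus strand), ranged from 170.3 over 254.8 to 386 CPM in EV and from 157 over 182 to 226 CPM in BCR-ABL1 lines. Its highest value was EV line 2B and its lowest EV value was line 2C, at which the groups overlapped. Xrcc6 fell by 0.50 on the log2 scale (SE 0.18, edgeR adjusted p = 1 against a 1.5-fold change and 0.0271 against no change). With total counts in place of TMM the Xrcc5 call against no change was missed (log2 change 0.38, edgeR adjusted p = 0.0886). That call was also lost for Xrcc5 when EV line 2A or BCR-ABL1 line 1A, 1B, 1C or 2A was left out and for Xrcc6 without EV line 1A or BCR-ABL1 line 2A, 2B or 2C, with edgeR adjusted p up to 0.0635 and 0.0588.

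In the ligation complex, Lig4 fell most. Lig4, the DNA ligase that joins the ends (chr8:9969049-9977686, minus strand), measured 93.3, 95.9 and 92.9 CPM in the EV lines of mouse 1 and 130, 140 and 43.8 CPM in those of mouse 2. In BCR-ABL1 lines it measured 39.7, 39.6 and 38.6 CPM in mouse 1 and 29.5, 33.4 and 32.7 CPM in mouse 2. No BCR-ABL1 line reached the lowest EV line, which was again 2C. Lig4 fell 2.79-fold, a log2 change of -1.48 (SE 0.25, edgeR adjusted p = 0.00351 against a 1.5-fold change and 0.000297 against no change). Without EV line 2C the log2 change was -1.63 (edgeR adjusted p = 5.04e-05 against a 1.5-fold change). The changes in the mice taken alone were -1.25 and -1.70 on the log2 scale, and in mouse 2 alone the 1.5-fold test was missed (edgeR adjusted p = 0.0977).

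Xrcc4, the scaffold that stabilises the ligase (chr13:89774027-90089608, minus strand), ranged from 10.6 over 13.8 to 16.4 CPM in EV and from 10.4 over 11.3 to 13.2 CPM in BCR-ABL1 lines. These ranges overlapped widely, and the log2 change was -0.22 (SE 0.11, edgeR adjusted p = 1 against a 1.5-fold change and 0.143 against no change, or 0.0451 without EV line 2C). Nhej1, the XLF gene (chr1:74967139-75125200, minus strand), was the least counted of the end joining members, with 122 to 253 counts per line. It ranged from 2.96 over 3.69 to 5.03 CPM in EV and from 2.49 over 2.80 to 3.22 CPM in BCR-ABL1 lines. Only EV lines 1B and 2C lay within the range of the BCR-ABL1 lines. Nhej1 fell by 0.44 on the log2 scale (SE 0.13, edgeR adjusted p = 1 against a 1.5-fold change and 0.0311 against no change), a call that was lost in 7 of the 12 fits with a line left out (up to 0.0692). These were the fits without EV lines 1A, 2A and 2B and without BCR-ABL1 lines 1A, 1C, 2B and 2C. The Nhej1 call was also lost with the likelihood ratio fit (edgeR adjusted p = 0.0688), in mouse 1 alone (0.140) and in mouse 2 alone (0.149).

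By edgeR, 1 of the 10 members (Dntt) rose beyond 1.5-fold, where 5.99% of all tested genes did, and 2 (Dclre1c and Lig4) fell beyond it, where 6.49% did. Against no change, 2 members rose (Dntt and Xrcc5), where 22.5% of all tested genes did, and 4 fell (Dclre1c, Xrcc6, Lig4 and Nhej1), where 25.9% did. Without overlap of the 6 EV and 6 BCR-ABL1 lines, 2 members were higher (Dntt and Xrcc5), where 12.1% of all tested genes were, and 1 was lower (Lig4), where 13.5% were. The median log2 change of the 10 members was -0.33, against -0.024 over all tested genes. With 10 genes, a single call is 10% of the members, so the calls are read only gene by gene.

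**Figure D2:**
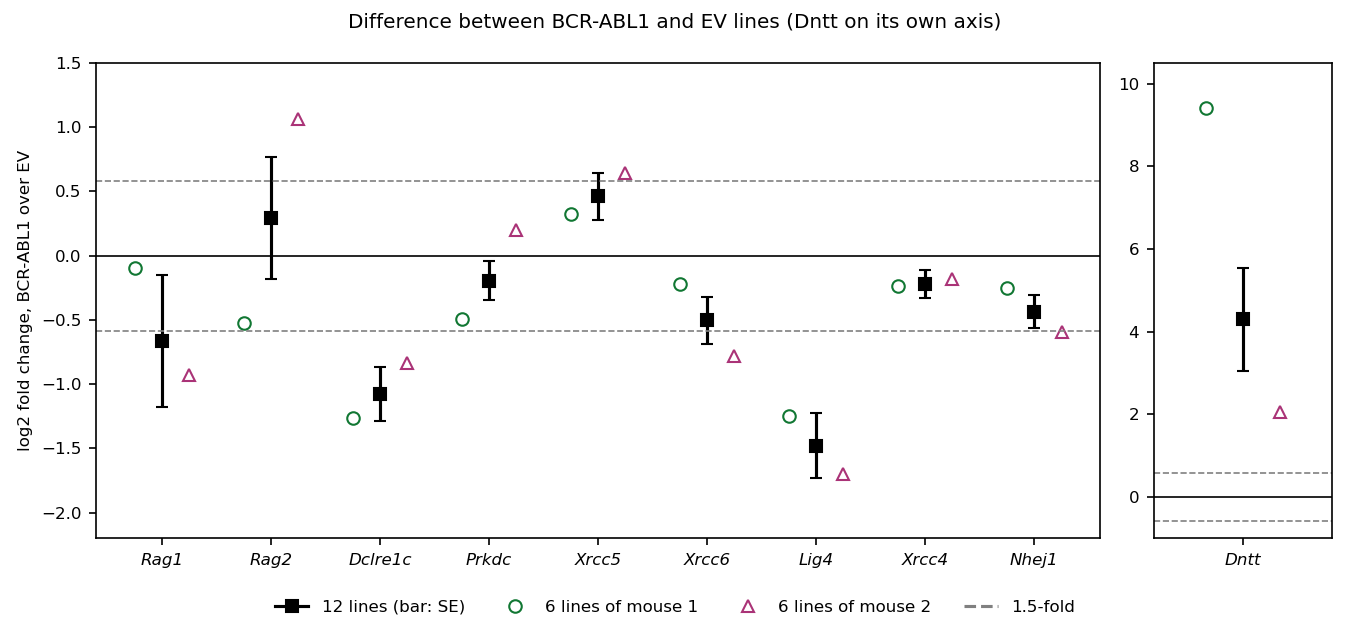
Log2 fold change of BCR-ABL1 over EV lines by edgeR for each gene, with squares for the 12 lines, bars of 1 SE of the difference of mean log2 CPM drawn around them, open circles for the 6 lines of mouse 1 and open triangles for the 6 lines of mouse 2, and dashed lines at a 1.5-fold change. Dclre1c at -1.08 and Lig4 at -1.48 lie below the lower line in both mice, Rag2 and Prkdc change sign between the mice, and Dntt, on its own axis, runs from 2.06 in mouse 2 to 9.40 in mouse 1. In mouse 2 alone none of Dclre1c, Lig4 and Dntt passed the edgeR test against a 1.5-fold change.

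The design also allows the mice to be compared. The effect of BCR-ABL1 here means the whole difference between BCR-ABL1 and EV lines, with the withdrawal of IL7 and the missing sort included. This effect differed between the mice for 2 members, Dntt and Prkdc, where 16.9% of all tested genes were called by edgeR. For Dntt the effect in mouse 2 minus that in mouse 1 was -7.35 on the log2 scale (edgeR adjusted p = 0.00427). Within EV lines, 1 member was higher in mouse 2 than in mouse 1, where 15.2% of all tested genes were, and this was Dntt, at 5.41 on the log2 scale (edgeR adjusted p = 0.00514). One member was lower in EV lines of mouse 2, where 9.56% of tested genes were, and this was Prkdc, at -0.65 (edgeR adjusted p = 0.000105). Within BCR-ABL1 lines 0 members were called higher in mouse 2, where 3.15% of all tested genes were, and 0 lower, where 2.83% were. At an unadjusted p under 0.05 these counts were 0 and 1, and the likelihood ratio fit of edgeR also called 0 and 0. The 4 groups of mouse and condition shared 1 estimate of the spread in this model. The EV lines of mouse 2, which stood apart from one another, therefore entered the test of the BCR-ABL1 lines too.

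How many members differed between the mice depended on EV lines 2B and 2C. Without 2C, edgeR called a difference of the BCR-ABL1 effect for 7 of the 10 members, namely Rag1, Rag2, Dntt, Prkdc, Xrcc5, Xrcc6 and Lig4, while over all tested genes such differences went from 918 higher and 1618 lower to 2381 and 3141. Rag1 was then higher in the EV lines of mouse 2 by 1.87 on the log2 scale (edgeR adjusted p = 8.92e-06), Lig4 by 0.52 (6.17e-05) and Xrcc6 by 0.42 (0.00971), beside Dntt at 6.00 (1.92e-05). Xrcc5 was lower there, at -0.68 (edgeR adjusted p = 0.00380), beside Prkdc at -0.70 (1.32e-05). Within BCR-ABL1 lines 1 member was then called higher in mouse 2, Rag2 at 0.93 (edgeR adjusted p = 0.0130), and 3 lower, Dntt at -1.94 (0.00382), Xrcc6 at -0.39 (0.0211) and Lig4 at -0.30 (0.00538). Over all tested genes, calls within BCR-ABL1 lines went from 473 higher and 425 lower to 1240 and 1235. Calls within EV lines went from 2286 higher and 1438 lower to 3878 and 3134. Leaving out EV line 2B instead gave 4 members with a difference of the effect, Rag2, Dntt, Dclre1c and Prkdc, and 3 lower in EV lines of mouse 2, Rag2 at -1.32 (0.0486), Dclre1c at -0.81 (0.00561) and Prkdc at -0.68 (0.000223). Over all tested genes the fit without 2B called 1189 higher and 1802 lower differences of the effect. It called 1633 genes lower in EV lines of mouse 2.

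The summed level of 14 proliferation markers was 6751 to 7060 CPM in the EV lines of mouse 1, 5168, 4456 and 5910 CPM in EV lines 2A, 2B and 2C, and 6981 to 8028 CPM under BCR-ABL1, and 5 of the 14 rose against no change, where 22.5% of all tested genes did. This sum was lowest in EV line 2B, where Rag1, Xrcc6 and Lig4 were highest and Xrcc5 was lowest. Its part in these differences was not tested.

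For genes whose proteins act as a complex, the ratio of their counts was compared in each library, where it does not depend on the scaling. The 4 ratios were tested by a two-sided exact permutation test over 924 labelings, which can give a p of 0.00216 at the smallest, with adjustment over the 4. Lig4 to Xrcc4 was 4.14 to 9.37 in EV lines and 2.24 to 3.83 in BCR-ABL1 lines, a log2 difference of -1.19 without overlap (exact p = 0.00216, adjusted 0.00577). Xrcc6 to Xrcc5 was 2.82 to 13.3 in EV lines and 2.07 to 2.90 in BCR-ABL1 lines, a log2 difference of -0.98 (exact p = 0.00433, adjusted 0.00577). The highest of these ratios was EV line 2B, and the only overlap was EV line 2C with BCR-ABL1 line 1B. Dclre1c to Prkdc was 0.183 to 0.455 in EV lines and 0.155 to 0.185 in BCR-ABL1 lines, a log2 difference of -0.86 (exact p = 0.00433, adjusted 0.00577), and here too 1 EV line, 2C, met 1 BCR-ABL1 line, 1A. All 3 ratios were lower in BCR-ABL1 lines within mouse 1 and within mouse 2 without overlap, with log2 differences of -1.02 and -1.37 for Lig4 to Xrcc4, -0.55 and -1.41 for Xrcc6 to Xrcc5 and -0.77 and -0.95 for Dclre1c to Prkdc.

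The ratio of Rag2 to Rag1 did not pass this test over the 12 lines, at a log2 difference of 0.69 (exact p = 0.175, adjusted 0.175). It was 0.153 to 0.183 in EV lines of mouse 1 and 0.105 to 0.137 in BCR-ABL1 lines of mouse 1. In mouse 2 it was 0.0385 to 0.0646 in EV lines and 0.151 to 0.181 in BCR-ABL1 lines. The BCR-ABL1 lines were therefore below the EV lines in one mouse, by 0.45 on the log2 scale, and above them in the other, by 1.82, and all 3 EV lines of mouse 2 were below every other line.

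**Figure D3:**
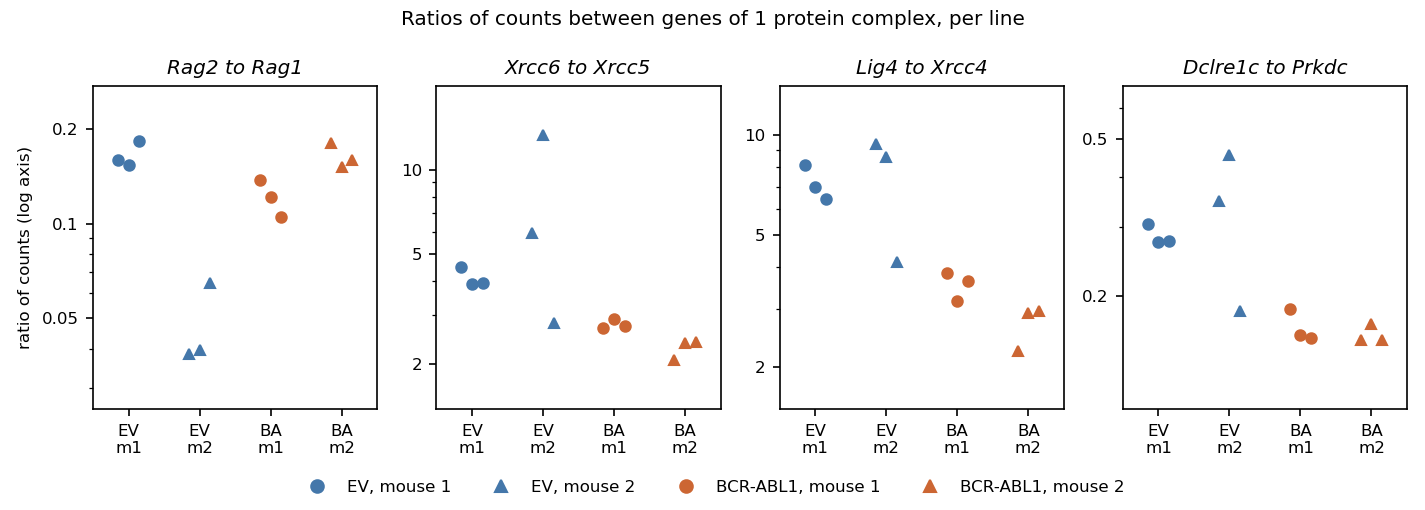
Ratio of counts (log axis) of both genes of a complex in each of the 12 lines, with EV in blue, BCR-ABL1 (BA) in orange, circles for mouse 1 (m1) and triangles for mouse 2 (m2). Lig4 to Xrcc4 is lower in all BCR-ABL1 lines, at 2.24 to 3.83, and Rag2 to Rag1 is lowest in the 3 EV lines of mouse 2, at 0.0385 to 0.0646.

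The wider pathway was read from lists of genes, of which counts and medians are given without a test of the list. Of 11 accessory end joining factors 6 fell against no change, where 25.9% of all tested genes did, and 1 rose, where 22.5% did. The median log2 change of these factors was -0.27. The largest fall was that of Polm, the polymerase that fills gaps at junctions and is the closest relative of TdT, which fell by 0.97 on the log2 scale (SE 0.19, edgeR adjusted p = 0.00142 against no change and 0.0596 against a 1.5-fold change). The one that rose was Ercc6l2, by 0.36 (edgeR adjusted p = 0.00262 against no change). Of 14 tested genes of the break response 4 rose and 2 fell against no change, beside the same shares of all tested genes, with a median of 0.025. Shld1, a subunit of the shieldin complex that protects ends from resection, was the only one of them past the 1.5-fold test, at -1.05 (SE 0.18, edgeR adjusted p = 0.0293). Of all tested genes, 6.49% fell beyond 1.5-fold.

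Other routes of repair were listed as well. Of 7 genes of alternative end joining 2 rose and 0 fell, both against no change and at an unadjusted p under 0.05 by edgeR, with a median log2 change of 0.15. The largest rise was that of Lig3, the ligase of this route, at 0.36 (SE 0.087, edgeR adjusted p = 0.00615 against no change). Of 12 genes of homologous recombination 1 rose and 1 fell, with a median of -0.099. Xrcc2 rose by 0.93 (SE 0.26, edgeR adjusted p = 0.00631 against no change), and Rad51d fell by 0.38 (SE 0.060, 0.00135). The shares of all tested genes called against no change, 22.5% higher and 25.9% lower, apply to these lists as well.

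Among 9 cofactors and turnover factors of the RAG proteins, 5 rose and 1 fell against no change, with a median log2 change of 0.25. Hmgb1 and Hmgb2, the DNA-bending proteins that aid RAG binding, rose by 0.57 and 0.42 (edgeR adjusted p = 0.000405 and 0.00147 against no change), but these genes have many near-identical pseudogene copies and their counts are uncertain. Kpna2, an importin that binds RAG1, rose most, by 0.71 (edgeR adjusted p = 0.000133 against no change), and Cul4a, the scaffold of a ubiquitin ligase, fell by 0.24 (0.00235). Of 16 regulators of the Rag genes 2 rose and 8 fell against no change, with a median of -0.25, and beyond 1.5-fold 1 rose and 2 fell. Over all tested genes 22.5% rose and 25.9% fell against no change, and 5.99% rose and 6.49% fell beyond 1.5-fold. Satb1, a chromatin organiser, lay between 1.75 and 6.38 CPM in EV and between 11.0 and 23.5 CPM in BCR-ABL1 lines, a rise of 2.21 on the log2 scale (SE 0.38, edgeR adjusted p = 0.00388 against a 1.5-fold change). Bach2, a transcriptional repressor, went from 133 to 478 CPM down to 77.9 to 122 CPM, a log2 change of -1.50 (SE 0.28, edgeR adjusted p = 0.00670 against a 1.5-fold change). Ets1, a factor of the ETS family, went from 592 to 693 CPM down to 208 to 298 CPM, a log2 change of -1.37 (SE 0.11, edgeR adjusted p = 7.06e-05 against a 1.5-fold change).

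**Figure D4:**
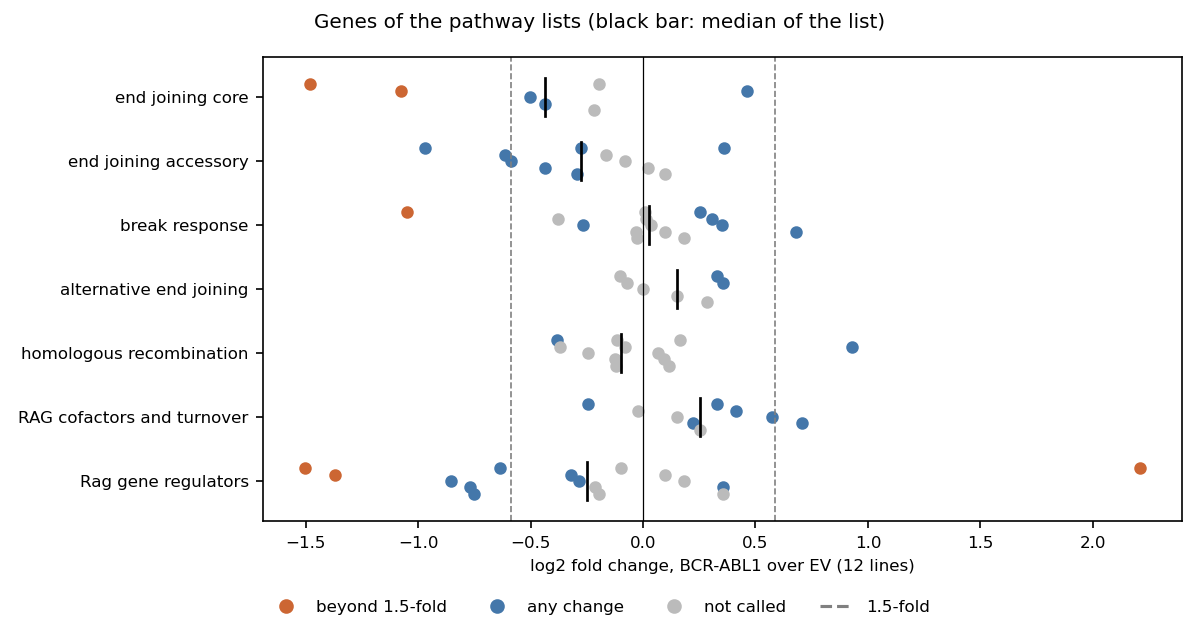
Each point is the log2 fold change of 1 gene, BCR-ABL1 over EV in 12 lines, by list, with orange for a change beyond 1.5-fold, blue for any change, grey for genes not called by edgeR, black bars at list medians and dashed lines at 1.5-fold. The accessory end joining factors centre at -0.27 and the regulators of the Rag genes at -0.25, with Satb1 at 2.21, Bach2 at -1.50 and Ets1 at -1.37.

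Genes near the Rag locus, and genes that start beside a member on the other strand, were measured as well. Traf6, a ubiquitin ligase gene that starts 28928 bp beyond the Rag locus, measured 34.5 to 73.0 CPM in EV lines against 48.8 to 53.9 CPM with BCR-ABL1, a log2 change of -0.0011 (SE 0.15, edgeR adjusted p = 0.996 against no change). B230118H07Rik, which overlaps Rag1 on the same strand and Rag2 on the other, measured 0.0902 to 1.57 CPM in all lines. Prr5l and Gm20693, also within 150 kb, did not pass the filter. Abhd13 starts 21 bp from Lig4 on the other strand and had a log2 change of -0.24 (SE 0.10, edgeR adjusted p = 0.0672 against no change), where Lig4 had -1.48. Mcm4, a helicase subunit that starts 466 bp from Prkdc, rose by 0.40 (SE 0.17, edgeR adjusted p = 0.0475 against no change), and Tmem167, which starts 485 bp from Xrcc4, had a log2 change of 0.065 (SE 0.069, 0.471). The difference of these changes from those of the members was not tested.

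Some members overlap genes on the other strand. The libraries were stranded, but the strand setting of the counting was not given in the sources used here, so reads of such a pair may not have been told apart. Suv39h2 overlaps Dclre1c and rose by 0.59 on the log2 scale (edgeR adjusted p = 0.00642 against no change), and Desi1 overlaps Xrcc6 and fell by 0.64 (0.0309). Gm4117, an antisense gene that overlaps Xrcc4, was at 9.94 to 19.9 CPM in EV lines against 4.39 to 6.31 CPM with BCR-ABL1 (log2 change -1.60, edgeR adjusted p = 0.000511 against a 1.5-fold change).

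Over the 12 lines, the genes whose centred log2 CPM lay closest to that of Rag1 were Ttc38, Gm33619 and Gm16211, at a root mean square difference of 0.30, 0.31 and 0.34, where the standard deviation of Rag1 itself was 0.86. Closest to Rag2 were Dip2a, Iqsec2 and Nf1, at 0.35, 0.38 and 0.38 for a standard deviation of 0.82. For Dntt they were Tbc1d4, Mgst2 and Stard8, at 0.80, 0.94 and 0.95 for a standard deviation of 3.82. The search covered 11051 genes, and these likenesses are descriptions over lines that share library, condition and mouse. Summed Igkv transcripts were 160 to 279 CPM in EV lines against 32.3 to 53.3 CPM with BCR-ABL1, and summed Ighv transcripts were 161 to 304 CPM against 10.6 to 20.4 CPM.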

How the data were processed

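The deposited file holds whole-number counts per gene for the 12 lines, which the authors made from reads of stranded total RNA libraries, without normalization. The submitters' processing notes name FastQC 0.11.5, Trimmomatic 0.36, TopHat2 2.1.1, Bowtie2 2.3.2, featureCounts 1.5.3, R 3.6.1, edgeR 3.18.1 and the build GRCm38, with no role or order. The strand setting of the counting is not given in the sources used here.

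Counts were analysed in R 4.3.3 with edgeR 4.0.16, and DESeq2 1.42.0 and limma 3.58.1 were loaded for alternatives and contrasts. Python 3.11.15 with matplotlib 3.10.9 drew the figures. Symbols, positions and merged exon lengths came from GENCODE M21 on GRCm38, which matched 51633 of 51826 identifiers. Genes were filtered with filterByExpr and normalized with TMM. Groups were compared on the quasi-likelihood fit of edgeR over all 15038 tested genes, with glmTreat at 1.5-fold and glmQLFTest against no change, Benjamini-Hochberg adjustment and a threshold of 0.05. Differences between the mice were contrasts in a model of 4 groups. CPM is scaled by TMM, log2 CPM used a prior count of 2, and each SE is the standard error of the difference of mean log2 CPM. Fits were tested on simulated counts. The test at 1.5-fold is that of the study's methods, which used a likelihood ratio fit, run here as an alternative.

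The members and the gene lists were chosen with earlier results of these data known. Beside the members, the genes named are the largest rise and fall of a list or those called beyond 1.5-fold, the neighbours of the members and the 3 genes most like Rag1, Rag2 and Dntt. Some other list genes were named after their values were seen (Hmgb1, Hmgb2, Cd3e, Cd3g, Lck, Tcf4, Bst2, Cox6a2, Siglech, Ccr9, Klk1 and those given as list examples).

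EV and BCR-ABL1 lines share the names 1A to 2C, and by the labels the digit is the mouse. Deviations from condition means correlated at 0.0853 to 0.240 within a mouse and at -0.203 to -0.0636 between mice. After removal of mouse means, lines with the same letter correlated at -0.109 to 0.0856, so the mouse pairs the lines and the letter does not. Chi-square statistics per gene between lines of one mouse and condition were 10.1 to 477, so no library was counted as a repeat. The replicates are called biological and came from independent experiments by the labels, which do not tie a letter to an experiment, and p-values measure the spread between lines.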

Additional observations from a re-analysis of the deposited data

Results flagged for a closer look

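Dntt in EV line 2B, at 18.5 CPM, lay apart from the other 5 EV lines, which ranged from 0.101 to 5.28 CPM. Of the 20 sets of 6 lines examined on the CPM scale for a line far from the rest, 1 was flagged. The nominal rate of the rule, about 1 in 20, assumes normally distributed values and was not measured here. In log2 CPM EV line 2B was at 4.21 and EV line 2A at 2.41, with the other EV lines from -2.85 to -1.15. The BCR-ABL1 effect on Dntt differed between the mice, by -7.35 on the log2 scale for mouse 2 minus mouse 1 (edgeR adjusted p = 0.00427), and the effect on Prkdc differed by 0.68 (edgeR adjusted p = 0.00143). The ratio of Rag2 to Rag1 moved in opposite directions, with a log2 difference of BCR-ABL1 from EV lines of -0.45 in mouse 1 and 1.82 in mouse 2 and no overlap of the lines within either mouse, and this difference between the mice was not tested.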

How the results depend on the processing

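Of the 1.5-fold calls, the single higher member (Dntt) became 0 with mouse as replicate block, with line pair as replicate block and in mouse 2 only, and the 2 lower members became 1 without a gene filter, 1 with DESeq2 and 0 in mouse 2 only. Leaving out 1 line at a time gave 0 to 1 higher and 1 to 2 lower. The Dntt call was lost in 8 of the 12 fits, without EV line 1A, 1B, 1C or 2A or BCR-ABL1 line 1A, 1B, 1C or 2A, with edgeR adjusted p up to 0.0798. Of the calls against no change, the 2 higher became 1 with total counts, 1 without a gene filter and 0 in mouse 2 only, and the 4 lower became 2 without a gene filter, 2 with line pair as replicate block and 1 in mouse 2 only, with 1 to 2 and 2 to 5 when a line was left out. The replicate block by mouse changed no other call of a member in these tests, and no ratio changed its call under any alternative.

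Differences of the effect between the mice numbered 4 without a gene filter and 2 to 7 with a line left out. Between the mice, members called higher within EV were 2 without a gene filter, 2 by the likelihood ratio fit and 1 to 4 with a line left out, and those called lower were 4 without a gene filter and 1 to 3. Within BCR-ABL1 lines they were 2 and 1 without a gene filter, and 0 to 1 higher and 0 to 3 lower with a line left out. Reversed log2 values were -0.52 for Rag2 in mouse 1 only, 0.20 for Prkdc in mouse 2 only and -0.048 for Xrcc4 between the mice in EV without a gene filter. Leaving out a line, the contrast of mice within EV ran from -0.14 to 0.42 for Xrcc6, from -0.12 to 0.52 for Lig4 and from -0.12 to 0.19 for Xrcc4. Within BCR-ABL1 it ran from -0.090 to 0.012 for Dclre1c and from -0.0072 to 0.046 for Prkdc, and the difference of effects for Xrcc4 from -0.099 to 0.21. Over all tested genes, 901 rose and 976 fell beyond 1.5-fold, against 2512 and 1877 in mouse 1 only, 614 and 408 in mouse 2 only and 1353 and 1434 without EV line 2C, and 3389 rose and 3897 fell against no change, against 5331 and 5163 in mouse 1 only and 1410 and 1500 in mouse 2 only. The cause of these moves was not tested. Of 223 alternative values for the counts and ratios 181 kept their call or stayed near the value reported, and of 890 for single members 799 did. Depth limits Dntt in the EV lines of mouse 1 most, at 7 to 19 counts per line.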
